A study of Mus musculus with 8 samples.

Results

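The 40 genes described here encode proteins that copy DNA in S phase. They were chosen by symbol, from origin loading to the supply of nucleotides, and matched to the Ensembl identifiers of the count table with the GENCODE annotation of the GRCm38 mouse genome. All 40 were found among the 48526 genes of the table, and all 40 were among the 9744 genes that were tested, those whose normalized count reached 20 in 4 or more of the 8 libraries. *Fen1* passed through its 4 right libraries alone, its 4 left libraries lying below 20, and the other 39 reached 20 on both sides.

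The libraries came from the heart fields of 4 wild-type male embryos of the C57bl6/J strain at stage E8.5f, named L29-3, L43-5, L46-8 and L49-3. The heart field is the tissue that supplies cells to the growing heart tube. It was taken between the headfolds and the end of the second somite, the heart tube and the back were removed, and the rest was divided along the midline, so that each embryo gave 1 left and 1 right library. Embryos were not pooled, each is 1 animal, and the question asked of these genes was whether the 2 sides of an embryo, or the 4 embryos, differed in them.

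Replication starts in G1, when the origin recognition complex, with Cdc6 and Cdt1, loads the ring of the MCM2-7 helicase onto DNA. At the onset of S phase, kinases that include cyclin E with its partner Cdk2 bring Cdc45 and the GINS complex to the ring, which turns it into the active CMG helicase. Polymerase alpha with primase then lays down primers, the RFC complex loads the PCNA clamp, and polymerases delta and epsilon extend the strands. Many of these genes are transcribed in late G1 under the control of E2F factors, so that their RNA is low in resting cells and high in cycling tissue. RNA from a bulk sample cannot tell fewer cells in S phase from less RNA in each cell.

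Promoter sequences are shown first, because E2F is the factor best known to bind these genes and because its letters were found in many of them. RefSeq windows of 250 bases before to 50 bases after the start, on the GRCm38.p6 build, were at hand for 32 of the 40 genes, all but *Mcm4*, *Gins1*, *Gins2*, *Gins4*, *Ccne2*, *Prim2*, *Pole* and *Rfc2*. They were searched on both strands for the E2F letters TTTCCCGC, TTTCGCGC, TTTGCCGC and TTTGGCGC and for the CCAAT box letters, CCAAT, of the factor NF-Y. The windows below hold 100 bases each, read 5′ to 3′ on the strand of the gene, for 4 subunits of the helicase and for *Orc1*. The windows are *Mcm3* at chr1:20820283-20820382 on the minus strand, *Mcm5* at chr8:75109314-75109413 on the plus strand, *Mcm6* at chr1:128359699-128359798 on the minus strand, *Mcm7* at chr5:138171854-138171953 on the minus strand and *Orc1* at chr4:108579381-108579480 on the plus strand. Capitals mark E2F letters and CCAAT letters on either strand, and the 2 kinds share a base in *Mcm7*, while 2 E2F matches overlap in *Mcm5*.
Mcm3: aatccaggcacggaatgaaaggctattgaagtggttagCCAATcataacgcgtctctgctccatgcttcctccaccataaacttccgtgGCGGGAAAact
Mcm5: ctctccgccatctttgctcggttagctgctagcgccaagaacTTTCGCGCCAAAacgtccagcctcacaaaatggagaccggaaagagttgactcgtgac
Mcm6: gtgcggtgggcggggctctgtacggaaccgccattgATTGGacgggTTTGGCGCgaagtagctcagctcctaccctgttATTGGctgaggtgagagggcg
Mcm7: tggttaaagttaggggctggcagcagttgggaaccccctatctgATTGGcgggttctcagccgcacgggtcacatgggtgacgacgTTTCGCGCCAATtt
Orc1: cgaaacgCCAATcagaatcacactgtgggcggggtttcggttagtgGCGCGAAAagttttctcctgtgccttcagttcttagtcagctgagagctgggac

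E2F letters occurred in 13 of the 32 replication genes with a window (40.6%). The share was 5.54% of the 7433 tested genes with a window and 2.6% of all 27025 genes with a window. The 13 genes were the loading factors *Orc1*, *Cdc6* and *Cdt1*, the helicase subunits *Mcm3*, *Mcm5*, *Mcm6* and *Mcm7*, and *Gins3*, *Pold1*, *Pold3*, *Pole2*, *Rfc3* and *Lig1*. Their 19 matches lay between 162 bases before and 42 bases after the start, with a median of 7 bases before it, and 13 of the 19 lay within 50 bases of it. CCAAT letters occurred in 20 of the 32 genes (62.5%), against 43.1% of tested genes and 41.1% of all genes with a window. Both kinds occurred together in 1 window in 7 of the 32 genes (21.9%), against 2.39% of tested genes. The letters alone do not show that a factor was bound in these cells. Among other replication genes, chosen as a list of 47, E2F letters were in 11 of the 39 genes with a window (28.2%). Among 26 genes of E2F and the S phase kinases they were in 8 of 20. CCAAT letters were in 18 of 39 of the other replication genes and in 12 of 20 of the E2F and kinase genes. Both kinds together were in 6 of 39 and in 6 of 20. The share with both kinds was thus higher among the E2F and kinase genes than among the 32 replication genes, though on 20 genes only.

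**Figure D1:**
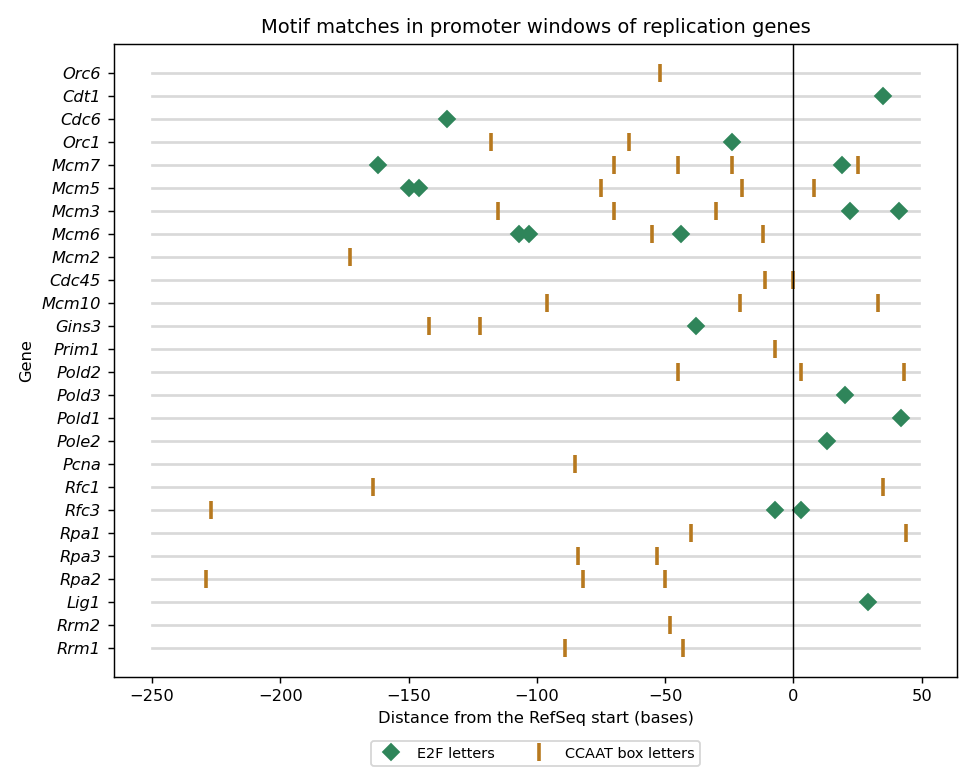
Position of E2F letters (diamonds) and CCAAT letters (bars) in the windows of the 26 replication genes that hold either, with the distance from the RefSeq start in bases on the horizontal axis and 1 gene per row. E2F matches gather near the start, 13 of 19 within 50 bases, but reach 162 bases upstream in *Mcm7*.

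The libraries held between 1147446 and 3520753 counts, L49-3 having the smallest pair, and 0 counts of a gene would allow for at most 0.852 CPM, the count relative to the library total, in the deepest library and 2.61 CPM in the shallowest, for counting error only. Each replication gene was counted in every library, from 11 counts for *Fen1* to 1804 for *Mcm7*, and 38 of the 40 reached a normalized count of 20 in all 8. All 10 markers of the second heart field were tested, and their sum was between 471 and 665 CPM. Cardiomyocyte markers were between 426 and 3557 CPM although the heart tube had been removed, the lowest library being the left one of L49-3, and neural tube markers were between 168 and 557 CPM, the highest libraries being both of L49-3. These markers are set beside the sides further on.

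Levels between genes were compared per length, as counts scaled by exon length and by TMM-scaled library size (RPKM), with the spread over all 8 libraries. The replication genes had a median level of 25.6 RPKM, against 10.8 for all tested genes, and 21 of the 40 lay in the upper quartile of tested genes while 5 lay below the median. *Rrm2*, the small subunit of ribonucleotide reductase and thus of the enzyme that makes deoxynucleotides, had the highest level, 166 ± 18.6 RPKM (SD, n = 8). It was followed by *Pcna*, the sliding clamp, at 121 ± 10.4, and by *Mcm7*, *Mcm4*, *Mcm5* and *Mcm3* of the helicase between 108 and 98.3. *Fen1*, the flap endonuclease that trims Okazaki fragments, was lowest at 4.40 ± 0.681. Of the 39 pairs of neighbours in this order, 36 overlapped over the 8 libraries, and the first of the pair was higher in every library in 8. Only the steps from *Rrm2* to *Pcna*, from *Mcm6* to *Lig1* and from *Lig1* to *Mcm2* separated the libraries of neighbours.

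**Figure D2:**
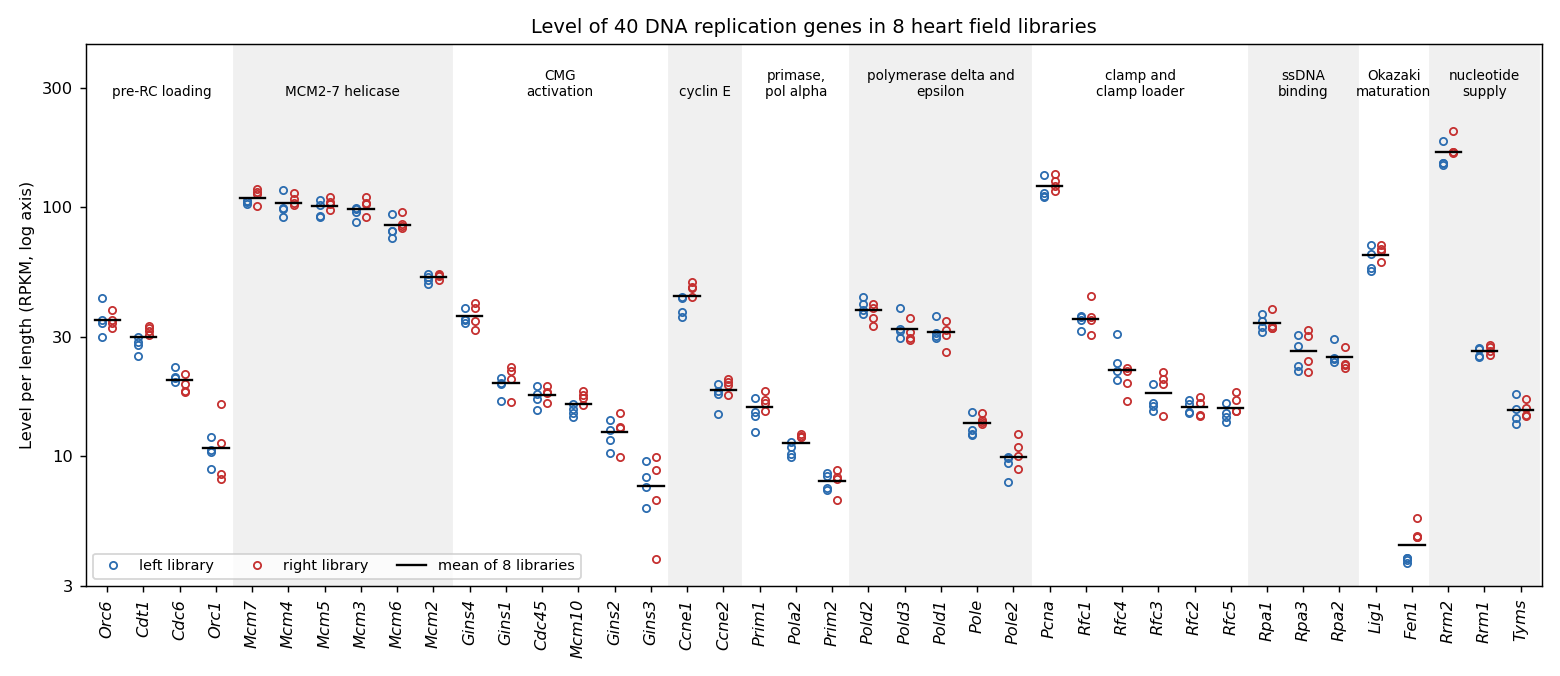
Level per length (RPKM, log axis) of each of the 40 replication genes in the 4 left (blue) and 4 right (red) libraries, with the mean of 8 as a bar, grouped by role. Levels span from 4.40 for *Fen1* to 166 for *Rrm2*, and 5 of the 6 helicase subunits lie between 84.3 and 108. Relative to the mean, the libraries of a gene spread most in *Gins3*, from 3.86 to 9.92, and *Orc1*, from 8.11 to 16.2.

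Among the loading factors, *Orc6* was highest with 35.3 ± 3.89 RPKM and *Orc1*, the ATPase of the origin complex whose levels vary through the cell cycle, was lowest with 10.7 ± 2.61, a ratio within a library of 3.43 ± 0.808. *Cdt1* at 30 and *Cdc6* at 20.1 lay between them. The 6 helicase subunits, which sit in the ring in equal numbers, had a median of 99.5 RPKM. *Mcm7* led with 108 ± 6.05 and *Mcm2* was lowest with 52.1 ± 1.64, and *Mcm7* exceeded *Mcm2* by 2.08 ± 0.125 times, in 8 of 8 libraries. Part of this gap turned on the length used, as the union of exons of *Mcm2* is 6956 bases. With the longest transcript in its place *Mcm2* stood at 104 RPKM, *Mcm7* still led with 161, and *Mcm6* was lowest with 90.4.

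The CMG activation factors were lower, with a median of 16.9 RPKM. *Gins4* led with 36.4 ± 3.10, and *Gins3* was lowest with 7.58 ± 1.99 although the 4 GINS proteins form a complex with 1 copy of each. *Gins4* was 5.16 ± 1.60 times *Gins3*, with single libraries from 3.51 to 8.28. Of the cyclin E genes, *Ccne1* had 43.7 ± 4.72 RPKM and *Ccne2* 18.4 ± 1.77, and *Ccne1* exceeded *Ccne2* by 2.38 ± 0.164 times, in every library. In the primase and polymerase alpha group, *Prim1*, the catalytic subunit of primase, was highest with 15.7 ± 1.78 and *Prim2*, the large subunit, lowest with 7.92 ± 0.712. With the longest transcript this order did not hold, *Pola2* being highest with 32.5 RPKM and *Prim1* and *Prim2* lying at 19.4 and 19.2.

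The subunits of polymerase delta, *Pold2*, *Pold3* and *Pold1*, stood at 38.6, 32.4 and 31.4 RPKM by the union of exons, above those of polymerase epsilon, *Pole* and *Pole2*, at 13.5 and 9.87. *Pold1*, the catalytic subunit of the one, exceeded *Pole*, that of the other, by 2.33 ± 0.204 times, in all 8 libraries. *Pcna* exceeded each of the 5 RFC clamp loader genes, from 3.42 ± 0.350 times for *Rfc1* to 7.82 ± 0.993 times for *Rfc5*. By the mean *Rfc5* was the lowest of its group with 15.6 ± 1.44 RPKM, but *Rfc2*, at 15.7, was above it in only 3 of 8 libraries. Of the RPA complex, which coats single-stranded DNA, *Rpa1* was highest with 34.2 ± 2.59 and *Rpa2* lowest with 24.9 ± 2.38. This order was also lost with the longest transcript, where *Rpa3* had 43.9 RPKM, *Rpa2* 41.0 and *Rpa1* 37.6. *Lig1*, the ligase that joins Okazaki fragments, had 63.8 ± 5.89 RPKM, which was 14.8 ± 2.43 times *Fen1*. Of the nucleotide supply genes, *Rrm2* was 6.30 ± 0.565 times *Rrm1*, the large subunit of the same enzyme, and *Tyms*, thymidylate synthase, was lowest with 15.3 ± 1.44. The ratio of *Rrm2* to *Rrm1* was smaller with the longest transcript, where they had 210 and 53.1 RPKM.

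Lengths and overlaps bear on this order. With the longest transcript in place of all exons, the median became 35.7 RPKM, the ends of the order, *Rrm2* and *Fen1*, kept their place, and the largest move was of *Pola2*, the second subunit of polymerase alpha, from 35th to 22nd. *Fen1* shares 1909 of its 2422 exon bases with *Gm10143* on the opposite strand, which had 26 counts in all, and *Gins2* shares 2758 of its 4097 with *Gse1*, which had 826. The use of strand in counting is not given in the sources used here, and without strand the reads of such partners cannot be told apart. The pseudogene *Pcna-ps2* is 99.2% identical to *Pcna* over 781 bases and had 194 counts, against 4671 for *Pcna*. Near-identical stretches in other genes also exist for *Mcm7*, *Cdc6*, *Rfc5*, *Rrm2* and *Tyms*, and *Pole2* shares 245 exon bases with *Gm49384* on the same strand. The split of reads is uncertain for all these genes.

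The fitted differences between left and right heart fields were small for the RNA of the replication machinery, as for most tested genes. The lower and upper quartiles of the log2 fold change were -0.135 and -0.009 for the 40 genes, and -0.096 and 0.091 for all tested genes. The fold change was past 1.2 in 1 gene, *Fen1*, which was admitted to the test by its right libraries only. None of the 40 genes passed the threshold of the study, which asks for a 1.2-fold difference together with an unadjusted p of at most 0.05 and which 3.05% of all tested genes passed. None had an adjusted p under 0.05 either, against 0.0103% of all genes, which is 1 gene, and the lowest adjusted p among the 40 was 0.987 (edgeR, Benjamini-Hochberg). At an unadjusted p of at most 0.05 there were 4 genes, *Ccne1*, *Rrm2*, *Cdt1* and *Mcm10*, against 4.36% of all genes. All 4 were lower on the left, as were 2.11% of all genes at that p, and DESeq2 found 0 of the 40 at that p.

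These genes had more counts and a smaller spread than the median tested gene. The SD of the left to right ratio over embryos had a median of 0.118 on the log2 scale for the 40 genes and 0.254 for all tested genes, and the replication genes had a median normalized count of 178, against 91.5. For 16 of the 40, the 95% interval of the fold change lay wholly within 1.2-fold in either direction, against 18.8% of all tested genes. These 16 included all 6 subunits of the helicase, *Pcna*, *Lig1*, *Rpa1* and *Rrm1*. For the other 24 the interval reached beyond 1.2-fold, and in 4 of these, the genes with an unadjusted p of at most 0.05, it did not include 0.

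**Figure D3:**
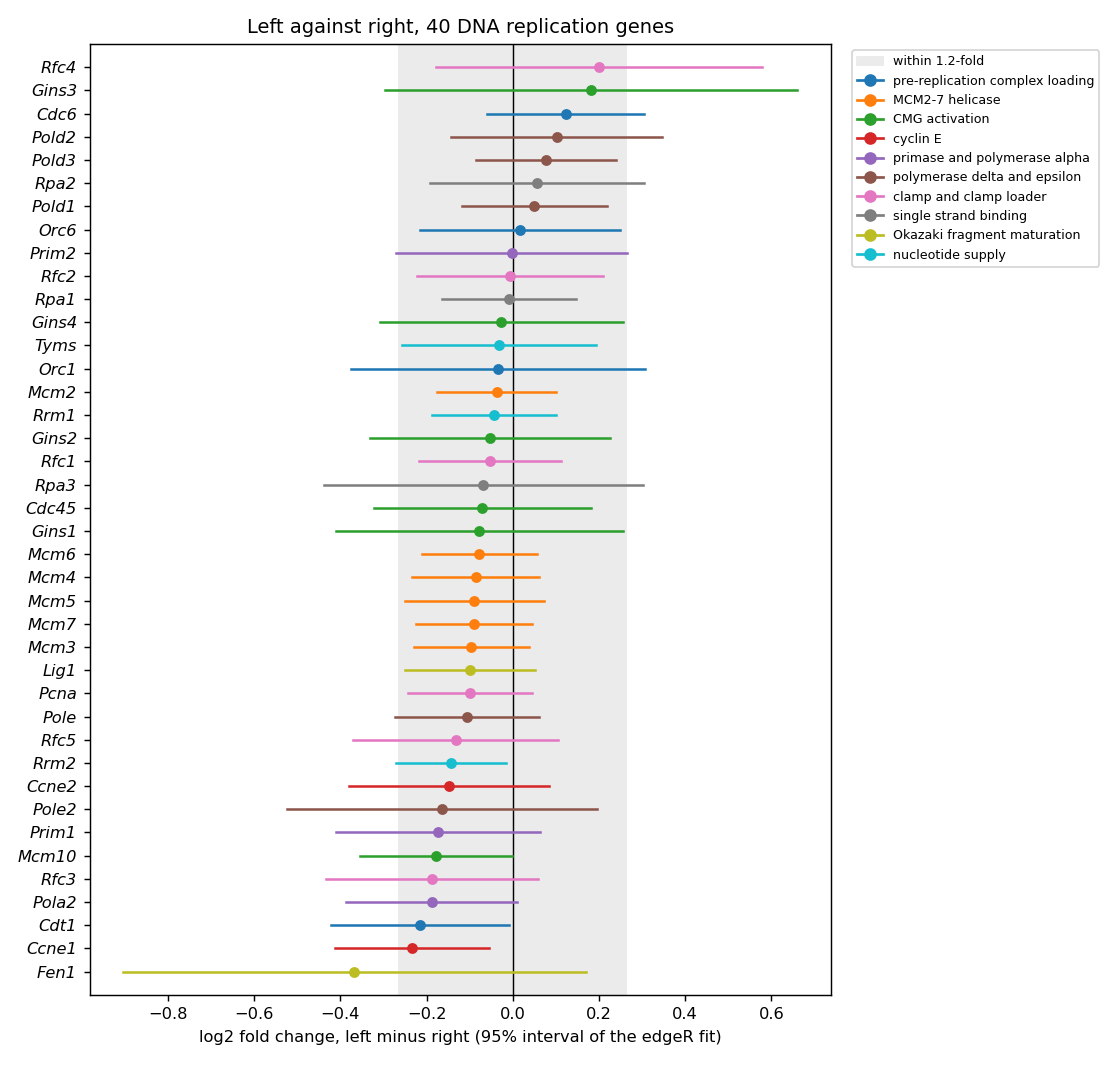
Log2 fold change of left against right for each replication gene (point) with its 95% interval from edgeR (line), ordered by size and coloured by role, with the span within 1.2-fold in grey. Points lie from -0.37 for *Fen1* to 0.20 for *Rfc4*, and 32 of 40 lie to the left of 0, among them *Fen1*, whose direction the filter fixed.

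Most of the 40 fold changes were small and negative. Their median was -0.07 on the log2 scale, against -0.00 for all genes, and 32 of the 40 (80.0%) were below 0, against 51.4% of all genes. The 12 genes that were lower on the left in all 4 embryos were *Cdt1*, *Mcm3*, *Mcm6*, *Mcm10*, *Ccne1*, *Ccne2*, *Pola2*, *Prim1*, *Pcna*, *Rfc5*, *Fen1* and *Rrm2*, whereas 6.1% of all tested genes were. *Cdc6* and *Pold3* were higher on the left in all 4 embryos, 2 of 40, against 6.26% of all genes. In 3 genes, *Cdt1*, *Pola2* and *Fen1*, every left library was below every right library, as in 1.01% of all genes. The sides of *Fen1* lie on either side of the filter that admitted it, which fixed its direction. *Fen1* therefore adds nothing to this count, to the 12 or to the 32. In 0 genes was every left library above every right one, against 1.51%. Genes that share a cell cycle phase move together, so that the 40 are not independent of each other, and no test was made of their number.

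*Fen1* had the largest fold change and the fewest counts, and had to differ in the direction it did, since only its right libraries reached the filter of 20. Its normalized count was 17.8, 17.6, 17.9 and 17.0 on the left of L29-3, L43-5, L46-8 and L49-3, and 26.0, 21.9, 21.6 and 21.6 on the right. All left libraries were below all right ones, with means of 17.6 ± 0.397 and 22.8 ± 2.16 (SD, n = 4). The log2 fold change was -0.37 with a standard error of 0.246 and an adjusted p of 0.987 (edgeR). Its 11 to 41 counts per library left a wide interval, from -0.90 to 0.17, which includes 0.

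*Ccne1*, the activator of Cdk2 at the start of S phase, had 191, 183, 221 and 218 normalized counts on the left, and 238, 220.4, 251 and 239 on the right, in the same order of embryos. Each embryo was lower on the left, and the sides met only where L46-8 on the left reached L43-5 on the right. The fitted log2 fold change was -0.23 (SE 0.0821, interval -0.41 to -0.05, adjusted p = 0.987, edgeR), which is 1.18-fold. *Ccne2*, the paralogue, was lower on the left in all 4 embryos too, with a log2 fold change of -0.15 and an interval from -0.38 to 0.08.

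*Cdt1*, which brings the helicase to origins and is destroyed once S phase begins, had 178, 151, 171 and 166 normalized counts on the left and 189, 198, 194 and 181 on the right. The sides did not overlap, and L43-5 had the widest gap. The difference was -0.22 on the log2 scale (SE 0.0945, interval -0.42 to -0.01, adjusted p = 0.987, edgeR), and -0.14 without L43-5, where it no longer had an unadjusted p of at most 0.05. Its partner in loading, *Cdc6*, went the other way in each embryo, with log2 ratios of 0.09, 0.13, 0.17 and 0.09, and a log2 fold change of 0.12 with an interval from -0.06 to 0.30.

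The remaining genes with an unadjusted p of at most 0.05 were named after their values were seen. *Rrm2* had 772, 790.2, 791 and 968 normalized counts on the left and 873, 865, 867 and 1052 on the right. Both libraries of L49-3 were highest, and the left was lower in each embryo by a like amount, with log2 ratios of -0.17, -0.13, -0.14 and -0.13. The log2 fold change was -0.14 (SE 0.0587, interval -0.27 to -0.01, adjusted p = 0.987, edgeR), or 1.10-fold, and without the embryo as a block its unadjusted p was over 0.05. *Mcm10*, a factor that helps to activate the helicase, had 208, 226, 217 and 237 on the left and 233, 250.3, 265 and 254 on the right, which overlapped at the left of L49-3. Its log2 fold change was -0.18 (SE 0.0805, interval -0.35 to -0.00, adjusted p = 0.987, edgeR). With any 1 embryo left out, at most 1 of the 40 genes kept an unadjusted p of at most 0.05, 0 without L43-5 and 1 without each of L29-3, L46-8 and L49-3.

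By role, all 6 subunits of the helicase were below 0, from -0.10 in *Mcm3* to -0.04 in *Mcm2*, and none of the 6 had an unadjusted p of at most 0.05. The 2 cyclin E genes, the 3 of primase and polymerase alpha and the 3 of nucleotide supply were all below 0 as well. So were the 2 of Okazaki fragment maturation, but the sign of *Fen1* was fixed by the filter that admitted it. The other, *Lig1*, was at -0.10 with an interval from -0.25 to 0.05. Polymerases delta and epsilon parted, the 3 subunits of delta lying above 0 at 0.05 in *Pold1*, 0.10 in *Pold2* and 0.08 in *Pold3*, and the 2 of epsilon below it, at -0.11 in *Pole* and -0.16 in *Pole2*. The difference between the 2 polymerases was not tested. The loading factors were split, 2 of 4 below 0, and 5 of 6 were below 0 both among the CMG activation factors and among the clamp and its loader, where *Gins3* at 0.18 and *Rfc4* at 0.20 were the exceptions. Both values turned on the embryos included, *Rfc4* being at 0.03 without L49-3 and *Gins3* at 0.02 without L43-5 and 0.07 without L29-3. The median was -0.09 over the 13 genes with E2F letters in their window and -0.07 over the 19 without.

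The median log2 ratio of the 40 genes was nearest to 0 for L29-3, at -0.01, with 20 of 40 lower on the left. L43-5 had -0.09 with 29 lower, L46-8 had -0.11 with 31 lower, and L49-3 had -0.08 with 26 lower. Over all tested genes, the same median was between -0.00 and 0.01 in every embryo.

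**Figure D4:**
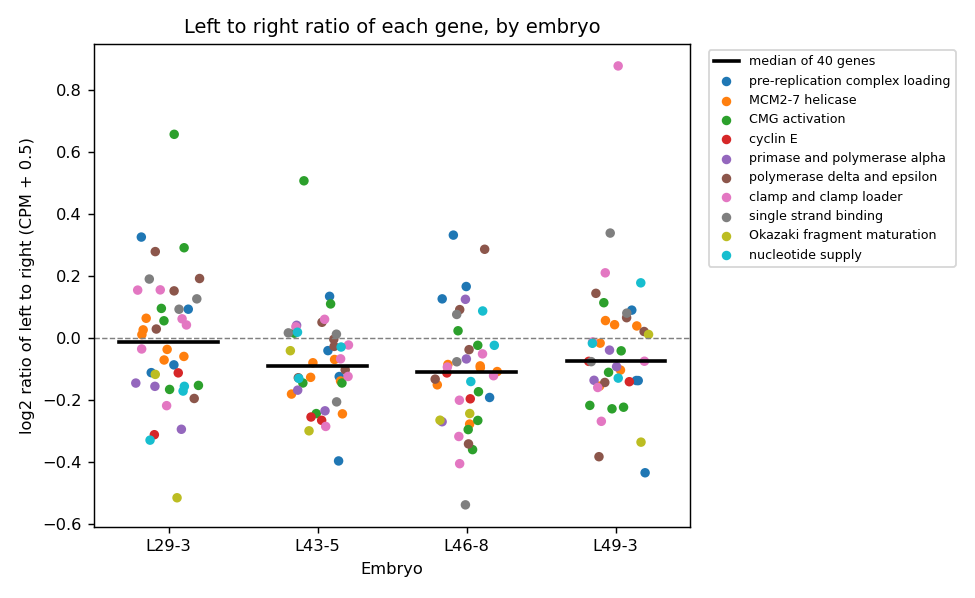
Log2 ratio of left to right of each replication gene (points, coloured by role) in each of the 4 embryos, from CPM with 0.5 added, with the median of the 40 genes as a bar. The bar lies between -0.11 and -0.01, and the points of every embryo fall on both sides of 0.

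The summed share of the 40 genes in all counts, which uses raw library totals, put the embryos in the same order of difference between sides. With TMM scaling, the log2 ratio of the summed level was -0.043 in L29-3 and -0.036 in L49-3, so that these embryos changed places. The share was 0.591%, 0.595%, 0.584% and 0.648% on the left of L29-3, L43-5, L46-8 and L49-3, and 0.599%, 0.633%, 0.623% and 0.663% on the right. The left was lower in each embryo, the difference being -0.0251 ± 0.0159 percentage points (SD, n = 4), while the sides overlapped because L49-3 was highest on both. No test was made of this sum.

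**Figure D5:**
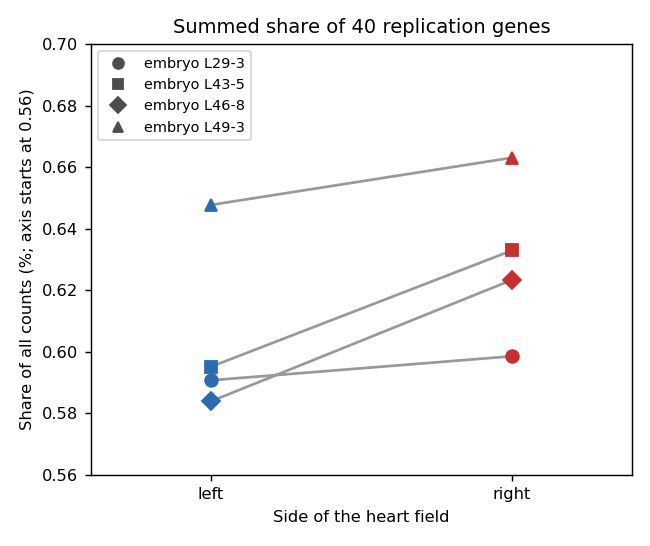
Share of all counts taken by the 40 replication genes (%, axis from 0.56) in the left (blue) and right (red) library of each embryo, with lines joining the 2 libraries of an embryo. All 4 lines slope upward from left to right, and L49-3 lies above the other embryos on both sides, at 0.648% and 0.663%.

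Markers of other tissues were set beside these values. The 8 tested of 10 neural tube genes were all lower on the left, 2 of them past the threshold of the study, and the median over the 8 was -0.40 on the log2 scale. The log2 ratio of their summed level was 0.38, -0.49, -0.90 and -0.34 in L29-3, L43-5, L46-8 and L49-3, and that of the summed replication genes was -0.04, -0.10, -0.11 and -0.04. Summed neural tube markers were between 168 and 442 CPM on the left and between 255 and 557 CPM on the right. The 10 tested of 12 cardiomyocyte genes were below 0 too, 0 past the threshold or at an unadjusted p of at most 0.05 (edgeR), with summed levels from 426 to 3557 CPM on the left and 1233 to 3272 on the right and ratios of 0.12, -0.53, 0.87 and -1.74. All 6 tested of 10 paraxial mesoderm genes were lower on the left, with a median of -0.20 and 305 to 417 CPM against 343 to 478, but 0 had an unadjusted p of at most 0.05 (edgeR) and the ratio of their sum was 0.05, -0.44, -0.20 and 0.17 by embryo. Surface ectoderm, foregut endoderm, endothelium, cranial neural crest and second heart field genes had 3 of 7, 5 of 10, 4 of 8, 1 of 5 and 5 of 10 tested genes lower on the left, and their summed levels overlapped between sides. Primitive blood genes had 0 tested of 10 and at most 28.9 CPM in sum. The part of these tissues in the replication values was not tested.

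The 4 embryos were compared next, with both sides of each. The ratio of the highest to the lowest embryo mean had a median of 1.17 over the 40 genes, against 1.25 over all tested genes. It was largest in *Gins3* at 1.81 and *Orc1* at 1.66, which had only 16 to 75 and 42 to 140 counts per library. With the side as a covariate, 0 of 40 had an adjusted p under 0.05 between embryos, against 0.174% of all genes, and the lowest adjusted p of the 40 was 0.274 (edgeR). At an unadjusted p of at most 0.05 there were 3 genes, *Rrm2*, *Pold3* and *Mcm6*. They are 7.5% of the 40, a share below the 9.99% of all genes. L49-3 was the highest embryo in all 3, and without L49-3 the number was 0.

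*Rrm2* had the smallest p between embryos. The mean of both sides was 822 normalized counts for L29-3, 828 for L43-5, 828.9 for L46-8 and 1009.8 for L49-3, so that 3 embryos lay close together and L49-3 stood above them (adjusted p = 0.274, edgeR). *Pold3*, an accessory subunit of polymerase delta, had 256, 278, 268 and 326 (adjusted p = 0.456, edgeR). *Mcm6* had 723, 694, 729 and 834 (adjusted p = 0.488, edgeR), again with L49-3 above the other 3.

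*Rfc1*, the large subunit of the clamp loader, followed with 355, 406, 406 and 456 (adjusted p = 0.497, edgeR), L29-3 being low and L49-3 high. *Orc1* had 62.7, 71.6, 55.9 and 92.7 (adjusted p = 0.501, edgeR), and its right library of L49-3 alone reached 106, against 79.0 on the left of that embryo and 53.3 to 74.7 in the other right libraries. At the other end, *Rfc2*, a small subunit of the clamp loader, had 183, 187, 193 and 187 (adjusted p = 0.994, edgeR) and was alike in all 4 embryos to within 1.05-fold. L49-3 was also the embryo with the smallest libraries, the lowest cardiomyocyte and the highest neural tube markers. Whether these go with its replication genes was not tested.

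Of 47 further replication genes, such as the remaining origin complex subunits, the Cdc7 kinase and the chromatin assembly factors, 45 were tested, all but *Pold4* and *Rrm2b*, the p53-induced form of *Rrm2*. Of the 45, 31 were lower and 14 higher on the left, with a median of -0.06, and 0 passed the threshold of the study or had an unadjusted p of at most 0.05 (edgeR). The 3 with the smallest p were *Asf1b*, a histone chaperone, with a log2 fold change of 0.27, *Chaf1a* of the chromatin assembly factor with -0.13, and *Rnaseh2c*, a subunit of ribonuclease H2, with -0.31, each with an adjusted p of 0.987 from edgeR. *Asf1b* was higher on the left in each embryo and *Chaf1a* lower in each, whereas *Rnaseh2c* was split 2 to 2.

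Of 26 genes of the E2F family, its pocket protein partners and the S phase kinases, 23 were tested, all but *Lin52*, *Rbl2* and *Cdkn1a*. Of the 23, 17 were lower and 6 higher on the left, with a median of -0.03, and 0 passed the threshold or had an unadjusted p of at most 0.05 (edgeR). *Cdkn1c*, the Cdk inhibitor p57, had a log2 fold change of -0.32 (adjusted p = 0.987, edgeR), with 567, 459, 501 and 263 normalized counts on the left and 671, 509.6, 440.3 and 622 on the right. The left library was the lower one in 3 of 4 embryos, and that of L49-3 was the lowest of all. *Mybl2*, a target and partner of this network, had -0.20 (adjusted p = 0.987, edgeR). Its log2 ratios were -0.09, -0.25, 0.02 and -0.56 in L29-3, L43-5, L46-8 and L49-3. *Tfdp2*, a dimer partner of E2F, had 0.20 (adjusted p = 0.987, edgeR), each of the 4 embryos having more of it on the left.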

How the data were processed

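Poly-A RNA of 8 left and right heart field libraries was sequenced in the study. The authors aligned paired reads with Hisat2 on GRCm38, removed duplicates, assigned the remaining reads to genes with featureCounts and deposited raw counts per gene, which were used as deposited. The authors report that duplicates were on average the great majority. Removing them can lower the counts of abundant genes most, and how far this changed the order of levels was not tested. No column of the table was left unused.

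Genes were named with GENCODE vM21 (48144 of 48526 identifiers had a symbol). The 9744 genes whose DESeq2-normalized count reached 20 in 4 or more libraries were compared between sides with edgeR 4.0.16 (R 4.3.3, TMM, quasi-likelihood test, embryo as block), and between embryos with an F test on the embryo terms beside the side. Adjusted p-values are Benjamini-Hochberg over all genes tested. DESeq2 1.42.0 and limma 3.58.1 served as alternatives, and the methods were tested on simulated data. Values per library are DESeq2-normalized counts, ratios of an embryo use TMM-scaled CPM plus 0.5, and RPKM uses the union of exons. Near-identical genes were sought with BLAST+ 2.17.0 (at least 200 bases, at least 95% identity).

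Members and lists were chosen with earlier results of these data known. Genes given in full were the 3 with the largest absolute fold change, since none passed the threshold of the study, and for the embryos the 5 with the smallest p and the 1 with the largest. For levels they were the highest and lowest of each role, and for the other lists the 3 with the smallest p.

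The left and right library of each embryo are a pair, both being from 1 animal. Their deviations from the side means correlated by 0.165, 0.190, -0.0160 and 0.437, against -0.389 to 0.255 between libraries of different embryos, so that the pairing rests on the labels. In a chi-square test of counts no pair of libraries came below 1.93 per degree of freedom, so none was a repeat of another. The alternatives were 2 other scalings, 2 other filters, 2 other tools, no block, another length and each embryo left out. No protein sequences were used here.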

Additional observations from a re-analysis of the deposited data

Results flagged for a closer look

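In 120 groups of 4 values (the left libraries, the right libraries and the left to right ratios of each of the 40 genes), 7 held a value that stood far from the other 3, with a gap of more than 0.829 of the range. Chance gives about 1 in 20, and 7 of 120 is 5.83 per 100. Of the 7, 4 were libraries of L49-3. *Rrm2* had 968 normalized counts on the left of L49-3, against 772 to 791 in the other left libraries, and 1052 on its right, against 865 to 873. *Rpa1*, the large subunit of the RPA complex, had 410.5 on the right of L49-3, against 345 to 349. *Rpa2*, its middle subunit, had 167 on the left of L49-3, against 135 to 140.0, and 156 on the right of L43-5, against 128 to 132. *Fen1* had 26.0 on the right of L29-3, against 21.6 to 21.9. The log2 ratio of *Rfc5*, a small subunit of the clamp loader, was -0.40 in L46-8, against -0.07 to -0.02 in the other embryos.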

How the results depend on the processing

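Under all 11 alternatives for the sides and all 10 for the embryos, 0 of the 40 genes passed the threshold of the study or had an adjusted p under 0.05. The lowest adjusted p was at least 0.956 for the sides and 0.121 for the embryos. The median log2 fold change stayed between -0.09 and -0.06, and 28 to 32 genes were lower on the left. The number with an unadjusted p of at most 0.05 between sides, 4 in the report, was 2 with library size alone, 1 with no filter, 0 with DESeq2, and 0 to 1 with an embryo left out. Between embryos, 3 in the report, it was 0 with DESeq2 and 0 to 7 with an embryo left out, the 7 being without L46-8 and the 0 without L49-3. With no replicate block, the number between sides was 4 and the median -0.08. Of the 4 in the report, *Rrm2* alone no longer had an unadjusted p of at most 0.05, and *Pola2* came in its place. With the longest transcript the median level was 35.7 RPKM. Of all genes, 297 passed the threshold of the study, against 687 with no filter, where 23873 genes were tested, and 59 with DESeq2. Between embryos, 17 of all genes had an adjusted p under 0.05, against 641 with no filter, 48 with DESeq2, 9 with at least 10 counts in every library, 4 with limma-voom, and 0 (without L49-3) to 236 (without L46-8) with an embryo left out. The cause of these differences was not tested. Genes with few counts, *Fen1* above all, had the widest intervals, and 4 embryos limit what any of these comparisons can show.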
